A study of Rattus norvegicus with 9 samples.

Results

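The messenger RNAs of 10 immediate early genes were followed in Wistar Kyoto rats, in RNA from the medial prefrontal cortex: Fos, Fosb and Fosl2 of the Fos family, Jun and Junb of the Jun family, Arc, Npas4, and the orphan nuclear receptors Nr4a1, Nr4a2 and Nr4a3. They were chosen with earlier results of these data known, and found by gene symbol among the 37991 genes of the table. Each symbol matched 1 gene. All 10 passed the filter on low counts, which kept 18047 genes for testing. The control rats were untreated. The K4 rats were given the compound K4 over 7 days by an intravenous cannula, and the ketamine rats received ketamine subcutaneously for 7 days. Both treatments were followed by 7 days of withdrawal, and tissue was taken on day 15. Each group has 3 libraries of poly(A) RNA, named here by their replicate number. The sources used here give K4 only as a code name and state no dose and no time between handling and dissection. No vehicle, cannula or injection is stated for the control rats, so compound, route and handling cannot be told apart. Nothing states that the libraries of a group come from separate rats, so every p-value measures the spread between these libraries, which may be partly technical.

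Immediate early genes are transcribed within minutes of synaptic activity or another stimulus, from factors already present in the cell, and most of their messages decay within hours. Fos and Jun family proteins pair as the transcription factor AP-1, Npas4 is a neuronal factor induced by calcium entry, Arc regulates AMPA receptor traffic at synapses, and the Nr4a proteins are receptors whose activity follows their own amount rather than a ligand. In the cortex their level in a neuron is widely read as a sign of recent activity.

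RefSeq promoter sequence was at hand for 6 of the 10 genes (Fosb, Fosl2, Junb, Npas4, Nr4a1 and Nr4a2). Junb and Nr4a1 are shown because their levels followed each other most closely over the 9 libraries. Both runs are the 250 bases before the annotated start, 5′ to 3′ on the coding strand, in RefSeq assembly GRCr8. Capitals mark matches to the core of the cAMP response element (TGACG, or CGTCA on the other strand) and to the TATA box letters TATAAA.
Junb, chr19:40080876-40081125, plus strand: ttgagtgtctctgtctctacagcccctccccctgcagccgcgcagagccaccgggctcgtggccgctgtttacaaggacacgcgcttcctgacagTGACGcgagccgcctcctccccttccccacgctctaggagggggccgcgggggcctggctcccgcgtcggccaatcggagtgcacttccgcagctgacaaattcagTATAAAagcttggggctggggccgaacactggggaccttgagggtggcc
Nr4a1, chr7:134259888-134260137, plus strand: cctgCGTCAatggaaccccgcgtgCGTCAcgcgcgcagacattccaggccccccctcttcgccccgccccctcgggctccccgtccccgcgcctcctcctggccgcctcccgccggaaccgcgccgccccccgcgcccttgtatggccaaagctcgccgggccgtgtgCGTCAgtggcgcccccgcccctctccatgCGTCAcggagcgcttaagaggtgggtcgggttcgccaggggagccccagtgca

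The Nr4a1 window held 4 matches to the core, the nearest 53 bases before the start, and the Junb window held 1, 155 bases before the start, with the TATA letters at 49 bases. Among the windows not shown, Nr4a2 held 1 match to the core, and Fosb, Fosl2 and Npas4 held 0. Searched on both strands in 33469 promoters of the same length, TGACG was present in 18.2% and present 4 or more times in 0.173%, and TATAAA in 12.9%. The full element TGACGTCA, which contains the core, was present in 1.59% and the AP-1 letters TGANTCA in 6.34%. The CArG box (CC and GG around a fixed run of A or T bases) was present in 1.5%. None of these 3 was matched in either window shown. The matches describe these letters only. The expression data do not measure binding.

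The 9 libraries held between 27122207 and 42731004 counts, and the lowest count of a studied gene was 63 (Fosl2 in ketamine replicate 2) while the highest was 6270 (Arc in K4 replicate 2). Mitochondrial messages of 13 genes made up 11.6% to 19.0% of the counts in the control libraries and 10.4% to 11.8% in the treated ones. Relative to the mean of the 9 libraries, longer genes had more counts in the control libraries (slopes of 0.044 to 0.071 in log2 CPM per doubling of implied gene length) and about the same or fewer in the K4 (-0.021 to 0.0019) and ketamine libraries (-0.067 to -0.018), so every comparison with the controls was also run with a correction for length. The highest markers of excitatory cortical neurons were Slc17a7, the vesicular glutamate transporter, between 606 and 1011 TPM and the kinase gene Camk2a between 1046 and 1602 TPM. The other markers of that list were lower, from Bcl11b (15.7 to 25.4 TPM) up to Neurod6 (53.6 to 114 TPM). Glial markers were also high, with S100b of astrocytes at 1288 to 1636 TPM and Mbp of oligodendrocytes at 627.5 to 1297 TPM.

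Levels of different genes were set side by side on the TPM scale (transcript reads scaled to transcript length and to a fixed library sum). The ratio of deposited TPM to deposited FPKM, another length-scaled measure, differed between genes of a library (0.371 to 2.17 in control replicate 1). The order below may therefore depend on the lengths used. Over the 9 libraries, Arc (50.3 ± 33.7 TPM, SD, n = 9), Junb (50.1 ± 19.5 TPM) and Nr4a1 (46.2 ± 18.5 TPM) had the highest means. Jun followed at 34.1 ± 5.64 TPM. Nr4a3 (14.1 ± 4.11 TPM) and Fos (13.7 ± 8.42 TPM) were next, above Fosb (8.71 ± 3.19 TPM), Fosl2 (7.54 ± 3.92 TPM) and Npas4 (6.18 ± 3.93 TPM), and Nr4a2 was lowest at 4.37 ± 0.7997 TPM. Of the neighbours in this order, Jun and Nr4a3 alone had ranges that did not overlap (22.6 to 38.8 TPM and 8.37 to 21.7 TPM). Every other gene in this order overlapped in range with the next one. Genes further apart could be free of overlap: Nr4a2, at 3.55 to 5.84 TPM, was wholly below Nr4a3 and Fos (6.47 to 32.1 TPM).

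Fos, the founding AP-1 subunit, was measured at 9.04, 7.18 and 7.49 CPM (counts scaled to a fixed library size) in control replicates 1 to 3, at 12.2, 25.3 and 4.83 CPM in K4 replicates 1 to 3, and at 5.93, 8.80 and 17.2 CPM in ketamine replicates 1 to 3. The highest and the lowest of all 9 values were both K4 libraries, and each treated group spanned the control range on both sides. The K4 mean was 14.1 ± 10.4 CPM against 7.90 ± 0.996 CPM in controls (SD, n = 3), a log2 fold change of 0.84 (SE 0.63, 95% interval -0.67 to 2.35, edgeR adjusted p = 0.484). It was 0.12 without K4 replicate 2 and 1.246 without K4 replicate 3. Ketamine against control gave 0.43 (-1.09 to 1.96, edgeR adjusted p = 0.697), and -0.11 without ketamine replicate 3.

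Fosb, which also gives the long-lived splice form deltaFosB that gene-level counts do not separate, stood at 9.23, 11.5 and 14.0 CPM in the controls and at 18.3, 25.1 and 11.8 CPM in the K4 libraries. The ketamine values were 11.7, 12.8 and 12.5 CPM, all inside the control range. K4 replicates 1 and 2 were above every other library, whereas K4 replicate 3 was among the control values. The log2 fold change of K4 against control was 0.67 (SE 0.24, 0.14 to 1.19, unadjusted p = 0.0176, edgeR adjusted p = 0.124). This was the one gene of the 10 whose adjusted p for K4 against control passed 0.05 under any other setting: DESeq2 gave 0.67 with an adjusted p of 0.0208, and edgeR without K4 replicate 3 gave 0.90 with an adjusted p of 0.0332, while over all 20 other settings the adjusted p ran from 0.0208 to 0.300.

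Fosl2, the AP-1 subunit also known as Fra-2, was the least counted of the genes, with 1.89, 3.25 and 5.00 CPM in the controls, 4.57, 7.58 and 3.31 CPM in the K4 libraries and 2.38, 2.24 and 2.37 CPM in the ketamine libraries. The ketamine values had an SD of 0.0782 CPM (n = 3) and lay below all 3 K4 values, while the control values reached from below the ketamine to among the K4 values. Against ketamine, K4 differed by a log2 fold change of 1.14 (SE 0.36, 0.36 to 1.93, unadjusted p = 0.00818), which did not pass the adjustment over all genes (edgeR adjusted p = 0.382, and 0.103 to 0.882 over the 20 other settings). The ratio of Fosl2 to Fosb CPM was 0.176 to 0.204 in the ketamine libraries, 0.25 to 0.302 in the K4 libraries and 0.204 to 0.356 in the controls.

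Jun, the main partner of the Fos proteins, was the steadiest gene. It was measured at 45.9, 42.95 and 57.7 CPM in controls, at 52.5, 58.7 and 49.6 CPM after K4 and at 48.6, 57.9 and 59.5 CPM after ketamine. The 3 groups overlapped, and the highest library was only 1.38 times the lowest. The interval of the log2 fold change was narrow for both treatments, -0.11 to 0.38 for K4 and -0.07 to 0.42 for ketamine against control. The ketamine value, 0.18 (edgeR adjusted p = 0.312), became 0.33 with an adjusted p of 0.0297 without control replicate 3, the highest control library. Over the 20 other settings its adjusted p ran from 0.0297 to 0.651.

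Junb, which pairs with Fos proteins as a less active subunit than Jun, moved over a wider range: 40.8, 32.8 and 27.3 CPM in controls, 53.8, 74.5 and 26.9 CPM after K4, and 33.8, 49.6 and 62.1 CPM after ketamine. K4 replicate 3 was again the lowest of the 9 and K4 replicate 2 the highest. The log2 fold change was 0.62 for K4 (-0.35 to 1.59, edgeR adjusted p = 0.414) and 0.53 for ketamine (-0.44 to 1.495, edgeR adjusted p = 0.432). Without K4 replicate 2 the K4 value was 0.26.

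Arc had the largest spread. The control libraries held 68.4, 66.7 and 27.4 CPM, the K4 libraries 110, 191.6 and 24.3 CPM, and the ketamine libraries 55.4, 82.8 and 90.4 CPM. The 2 ends of the range, 7.89 times apart, were both K4 libraries, replicate 2 and replicate 3. The mean of the K4 group, 109 ± 83.7 CPM, stood against 54.2 ± 23.2 CPM in controls (SD, n = 3), and the log2 fold change of 1.01 had a standard error of 0.74 and an interval from -0.78 to 2.79 (edgeR adjusted p = 0.473). It was 0.32 without K4 replicate 2 and 1.48 without K4 replicate 3.

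Npas4 was at 10.6, 6.47 and 6.85 CPM in controls, at 15.3, 22.1 and 9.22 CPM after K4 and at 8.38, 12.2 and 31.4 CPM after ketamine. Here the highest library was ketamine replicate 3. The log2 fold change was 0.96 for K4 (-0.41 to 2.34, edgeR adjusted p = 0.372) and 1.12 for ketamine (-0.25 to 2.496, edgeR adjusted p = 0.241), and the control range overlapped both groups. Without ketamine replicate 3 the ketamine value was 0.36, and without K4 replicate 2 the K4 value was 0.62.

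Of the nuclear receptors, Nr4a1 (Nur77) followed the pattern of Junb and Arc, with 59.7, 47.4 and 38.6 CPM in controls, 83.4, 104.5 and 39.0 CPM after K4, and 49.1, 70.2 and 74.2 CPM after ketamine. Control replicate 3 and K4 replicate 3 were the lowest libraries and lay side by side. The log2 fold change was 0.64 for K4 (-0.27 to 1.55, edgeR adjusted p = 0.368) and 0.41 for ketamine (-0.50 to 1.32, edgeR adjusted p = 0.521). Without K4 replicate 2 the K4 value was 0.34.

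Nr4a2 (Nurr1) was at 10.7, 14.6 and 12.2 CPM in controls, at 10.6, 15.2 and 9.05 CPM after K4 and at 9.39, 8.58 and 10.4 CPM after ketamine. All 3 ketamine values were below all 3 control values, and the K4 values overlapped both. The ketamine log2 fold change was -0.40 (SE 0.18, -0.79 to -0.02, unadjusted p = 0.0425, edgeR adjusted p = 0.144). With the length correction it was -0.29 (edgeR adjusted p = 0.356), and on the log2(TPM + 1) scale -0.15 (limma adjusted p = 0.551). In TPM the groups overlapped, with ketamine replicate 3 at 4.47 and control replicates 1 and 2 at 4.15 and 4.02. On that scale the median of all genes was itself shifted, by 0.16 for K4 and 0.12 for ketamine against control, so TPM values are read against that shift.

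Nr4a3 (NOR-1) was at 36.5, 40.3 and 40.1 CPM in controls and at 20.1, 26.7 and 27.8 CPM after ketamine, again without overlap. K4 replicates 1 and 2, at 40.3 and 52.5 CPM, were level with the upper control values or above them, and K4 replicate 3, at 26.3 CPM, was among the ketamine values. Ketamine gave a log2 fold change of -0.65 (SE 0.23, -1.16 to -0.13, unadjusted p = 0.0194, edgeR adjusted p = 0.0865). The size was similar under the 20 other settings (-0.74 to -0.51), but the adjusted p ranged from 0.00723 to 0.258. It was under 0.05 in 4 of them: a fit of the ketamine and control groups only (0.00723), the non-robust fit (0.0397), and the fits without K4 replicate 2 (0.0190) or K4 replicate 3 (0.00843), which enter this comparison only through the shared estimate of spread. With the length correction it was -0.54 with an adjusted p of 0.1999.

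**Figure D1:**
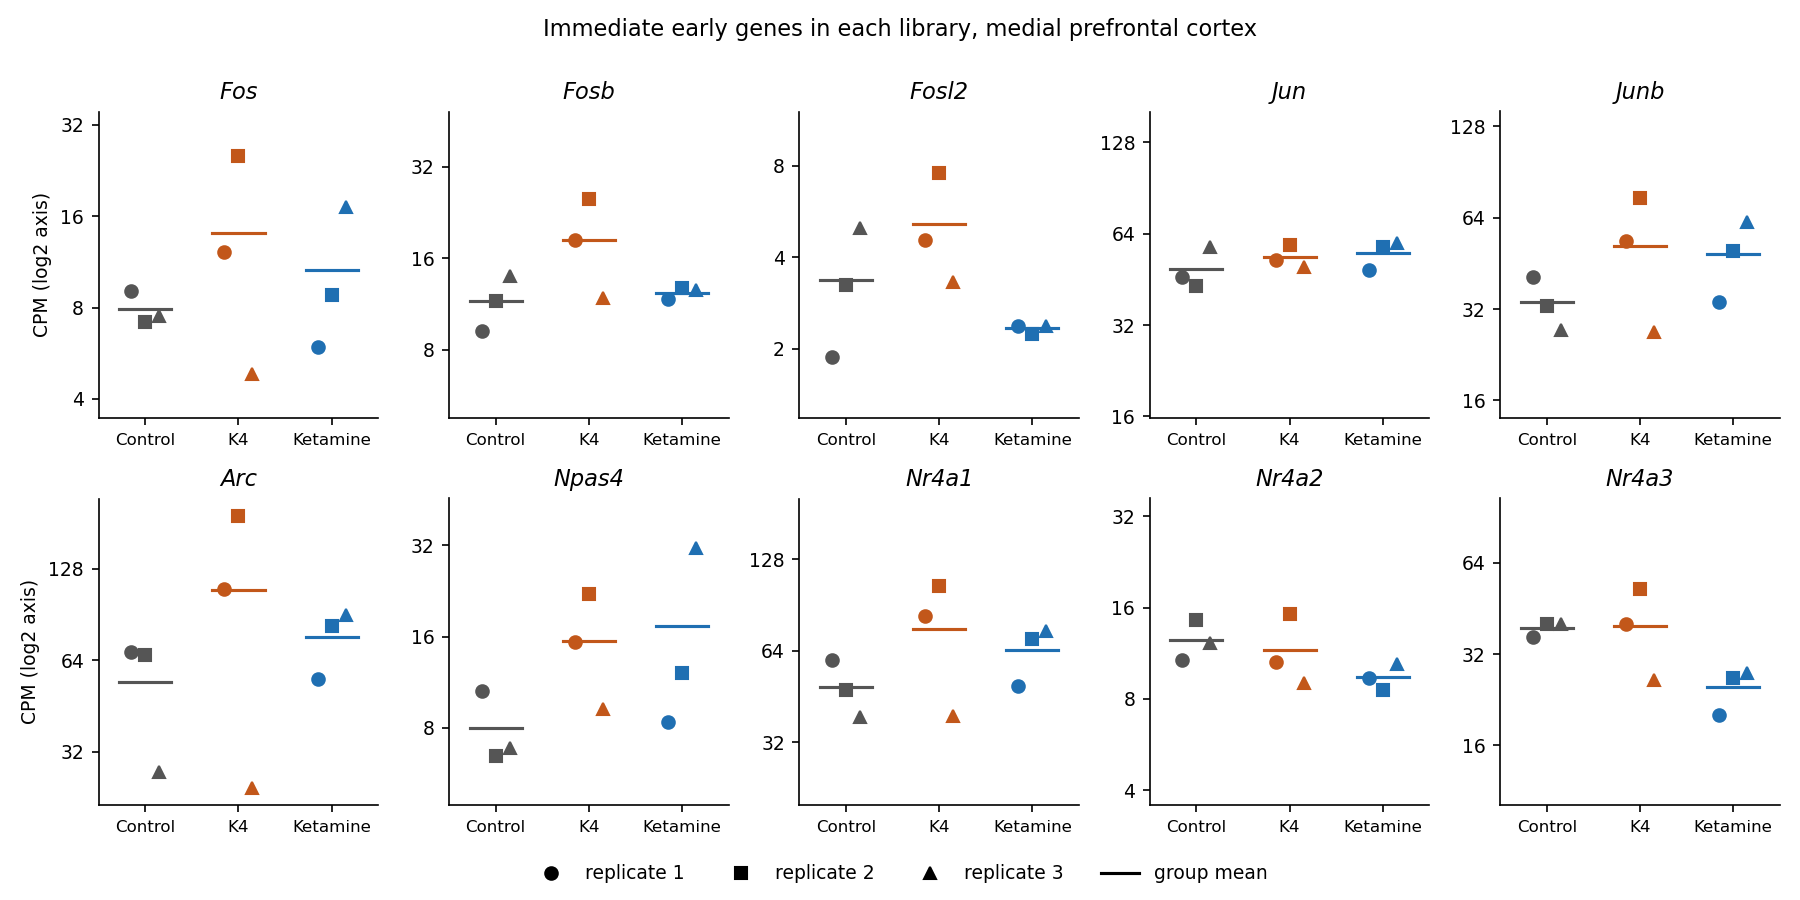
Level of each of the 10 genes in each library, in CPM on a log2 axis that differs between panels, by group, with the marker shape giving the replicate number and the line the group mean. K4 replicate 2 (orange square) is the highest and K4 replicate 3 (orange triangle) the lowest K4 library in every panel, and the ketamine values of Nr4a2 and Nr4a3 lie below the control values.

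With the threshold at an adjusted p of 0.05 (edgeR quasi-likelihood test, Benjamini-Hochberg over 18047 genes), 0 of the 10 genes were called for K4 against control, where 6.07% of all genes were called (2.27% higher and 3.8% lower). For ketamine against control 0 of 10 were called, where 16.7% of all genes were (6.95% higher and 9.75% lower). For K4 against ketamine 0 of 10 were called, where 0% of all genes were called by edgeR, 70 genes in all by DESeq2, and 9.13% of all genes had an unadjusted p below 0.05. In the joint test of the 3 groups 0 of 10 were called, where 12.2% of all genes were, and the lowest adjusted p was that of Fosl2, 0.116.

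At an unadjusted p below 0.05, the count was 1 of 10 for K4 against control (Fosb, higher), where 23.5% of all genes were below it, and 10.8% of all genes were below it and higher. For ketamine against control it was 2 (Nr4a2 and Nr4a3, both lower), where 31.3% were and 17% were lower. For K4 against ketamine it was 3 (Fosb, Fosl2 and Nr4a3, all higher in K4), where 9.13% were and 5.65% were higher. DESeq2 called 1 of the 10 genes for K4 against control (Fosb), where it called 10.5% of all genes. It called 0 of 10 for ketamine against control, where it called 19.9% of all genes, 0 of 10 for K4 against ketamine, where it called 0.388%, and 2 of 10 in the joint test (Fosb and Fosl2), where it called 17.6%.

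The sign of the estimates was mostly positive for K4. The log2 fold change of K4 against control was above 0 for 9 of the 10 genes, all but Nr4a2, beside 49.3% of all genes, and its median was 0.63 beside 0.00 for all genes. For ketamine against control it was above 0 for 7 genes, beside 49.7%, with a median of 0.29, and for K4 against ketamine for 8, beside 50.5%, with a median of 0.35. The comparisons share groups and the genes vary together, so the signs are not separate observations. For K4 against control the median was 0.25, with 8 genes above 0, without K4 replicate 2, and 0.92, with 10 above 0, without K4 replicate 3. For ketamine against control it was 0.10, with 6 above 0, without ketamine replicate 3. For K4 against ketamine it was -0.09, with 4 above 0, without K4 replicate 2, 0.68 without K4 replicate 3, 0.20 without ketamine replicate 1 and 0.60 without ketamine replicate 3, and 0.21 with the replicate number as a block. Without K4 replicate 2, the estimates of K4 against ketamine turned negative for Fos (-0.32), Junb (-0.26), Arc (-0.18) and Nr4a1 (-0.07).

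For ketamine against control and K4 against ketamine, the share free of overlap was near that of all genes in 1 direction only. The ketamine libraries were all below the controls for 2 genes (Nr4a2 and Nr4a3), with the same pattern in 18.1% of all genes, and the K4 libraries were all above the ketamine libraries for 1 (Fosl2), seen in 9.49% of all genes. In the opposite directions, 0 of the 10 genes were free of overlap, where 16.9% and 8.29% of all genes were. Between K4 and control 0 of the 10 genes were free of overlap, where 13.3% of all genes were higher and 14.2% lower without overlap.

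**Figure D2:**
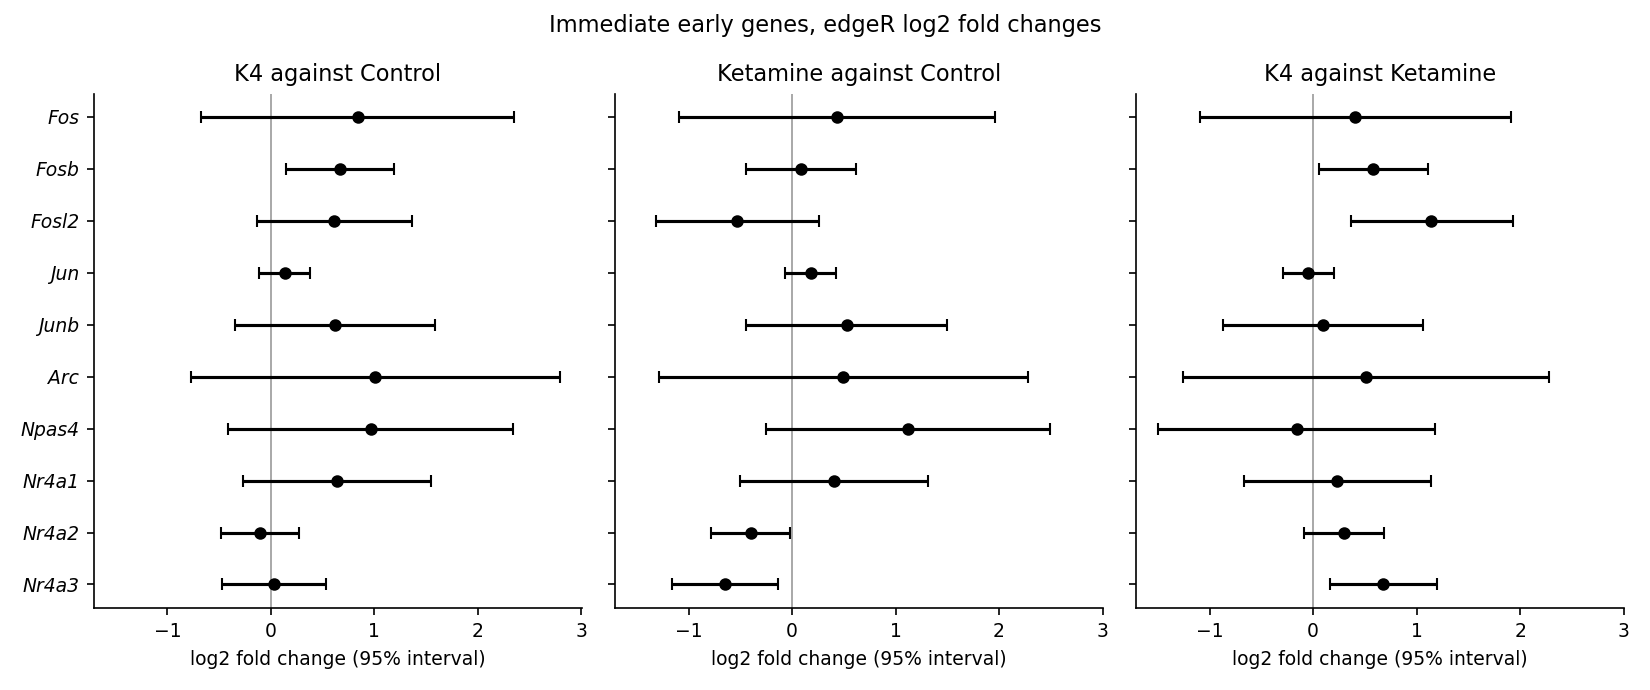
log2 fold change of each gene with its 95% interval from edgeR for the 3 comparisons. The intervals of Fos, Arc and Npas4 are the widest, that of Jun is among the narrowest, and none of the 30 estimates passed an adjusted p of 0.05.

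The width of these intervals follows from the spread between libraries of 1 group. The biological coefficient of variation, the relative spread left after counting error, was 59.9% for Arc, 52.0% for Fos, 46.4% for Npas4, 33.7% for Junb and 31.7% for Nr4a1, against a median of 10.01% over all genes tested. Fosl2 (28.8%), Fosb (19.96%), Nr4a3 (19.0%) and Nr4a2 (15.1%) were intermediate, and Jun (9.92%) was near that median. Among genes within 0.5 log2 CPM of its own level, each of the 10 was above the 93rd percentile, from 93.1 for Jun to 99.87 for Fos and 99.95 for Arc. The ratio of the highest to the lowest library was 5.25 for Fos, 4.85 for Npas4 and 4.02 for Fosl2, and the median over all genes was 1.47.

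**Figure D3:**
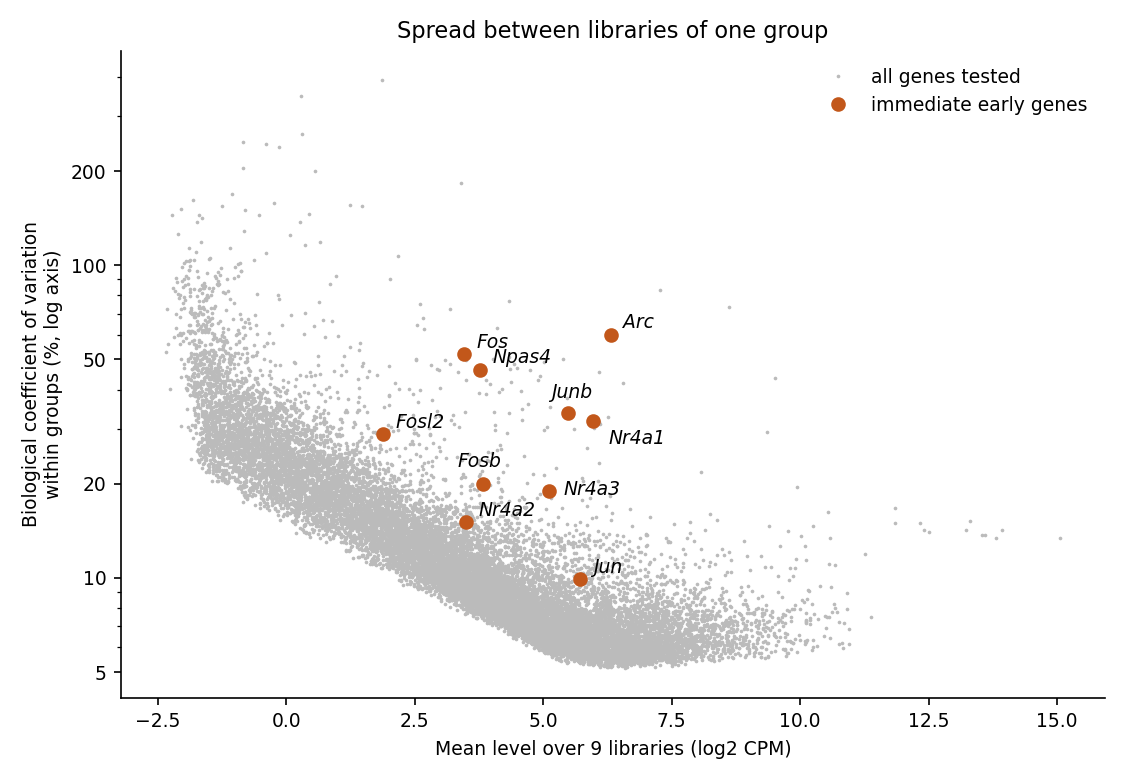
Biological coefficient of variation within groups (percent, log axis) against the mean level (log2 CPM) for the genes tested, with the 10 immediate early genes in orange. Arc, at 59.9%, and Fos, at 52.0%, stand well above genes of like level, and Jun, at 9.92%, is at the upper edge of the cloud.

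The libraries that were high for one gene tended to be high for the others. In the K4 group, replicate 2 was the highest and replicate 3 the lowest library for 10 of the 10 genes, an order seen in 18.9% of all genes. In the ketamine group, replicate 3 was highest and replicate 1 lowest for 7 genes, an order seen in 16.4% of all genes, and Fosb, Fosl2 and Nr4a2 departed from it. The control group had no common order: replicate 1 was the highest control library for Fos, Junb, Arc, Npas4 and Nr4a1 and the lowest for Fosb, Fosl2, Nr4a2 and Nr4a3. Over the 9 libraries, K4 replicate 2 was the highest for 8 genes, and ketamine replicate 3 for Jun and Npas4.

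Depth and tissue makeup of the libraries at the ends are given beside this order. K4 replicates 2 and 3 had 32735785 and 28495399 counts and mitochondrial shares of 11.4% and 10.4%. The summed TPM of 10 excitatory neuron markers was 2617 and 2584, that of 8 microglial markers 354 and 360.5, that of 8 vascular markers 228.5 and 216, that of 7 oligodendrocyte markers 2529 and 2005, and that of 6 meningeal markers 34.9 and 98.4. The excitatory and microglial sums thus differed little between these libraries, while the oligodendrocyte sum was higher in replicate 2 and the meningeal sum higher in replicate 3. The part of tissue makeup in the order of the libraries was not tested. In bulk tissue, fewer cells that express a gene and less of its RNA per cell cannot be told apart.

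Across the 9 libraries, the 45 pairs of genes had a median Pearson r of log2 CPM of 0.56, beside 10.3% of all pairs of tested genes at or above that value, and 44 of the 45 were positive, beside 49.9% of all pairs. Fos, Junb, Arc, Npas4 and Nr4a1 were the most closely tied, with r between 0.69 and 0.98 in their 10 pairs. That grouping was made after the values were seen. The 10 genes were also chosen with earlier results of these data known, the covariation included. The p-values of pairs given here and below are therefore a description only. Junb and Nr4a1 had the highest r, 0.98 (exact permutation p = 2.76e-05, Benjamini-Hochberg adjusted over 45 pairs p = 0.00062), with a Spearman rho of 0.97 (exact p = 0.000165, adjusted p = 0.00248). Leaving out the 2 libraries farthest from the Junb median gave an r of 0.996. Arc and Nr4a1 had an r of 0.95 (exact permutation p = 2.2e-05, adjusted p = 0.00062) and a rho of 0.97 (exact p = 0.000165, adjusted p = 0.00248), with 0.92 left without 2 libraries. Fos and Junb had an r of 0.93 (exact permutation p = 0.000132, adjusted p = 0.00149) and a rho of 0.92 (exact p = 0.00131, adjusted p = 0.0118), with 0.84 left.

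Outside those 5 genes, Fosb and Fosl2 had an r of 0.88 (exact permutation p = 0.00151, adjusted p = 0.00969). Their rho of 0.70 did not pass the adjustment (exact p = 0.0433, adjusted p = 0.139), and r was 0.66 without K4 replicates 1 and 2. Nr4a2 and Nr4a3 had an r of 0.83 (exact permutation p = 0.00526, adjusted p = 0.0237) and a rho of 0.88 (exact p = 0.00307, adjusted p = 0.0231), with 0.75 left without 2 libraries. Jun had no partner past the adjustment over the 9 libraries: its r ran from -0.07 (with Nr4a2) to 0.63, with a median of 0.45. Its rho was 0.75 with Fosb and with Npas4 (exact p = 0.0255, adjusted p = 0.0882 for each). Without control replicate 3, the pair of Jun and Npas4 passed by r. Low values of r were not particular to Jun, as Nr4a2 had an r of 0.01 with Npas4, 0.21 with Junb and 0.21 with Nr4a1.

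In all, 11 of the 45 pairs had an adjusted p below 0.05 by r and 10 by rho, and 11 had an r of at least 0.8, beside 1.79% of all pairs of genes. K4 replicate 2 carried part of this: without it 5 pairs remained below 0.05 (Fos with Junb, and Junb with Arc, Npas4 and Nr4a1, and Arc with Nr4a1), all 5 among the 11, and the r of Junb with Nr4a1 was 0.97. The number was 8 without K4 replicate 1 or without K4 replicate 3, and 10 or 11 without any 1 of the control or ketamine libraries.

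With the group means subtracted, so that only differences inside groups count, the r of all 45 pairs was positive, with a median of 0.65, beside 7.01% of all pairs of genes at or above it. An exact permutation within groups cannot give a p below 0.00463, and none of the 45 pairs passed an adjusted p of 0.05 (smallest 0.0521). Nr4a3 was the gene whose ties differed most between both views: its r with Fos was 0.56 over the 9 libraries and 0.92 within groups, and with Nr4a1 it was 0.38 and 0.87. The ratio of Nr4a3 to Nr4a1 CPM was 0.611, 0.85 and 1.04 in the controls, 0.483, 0.503 and 0.674 in the K4 libraries and 0.411, 0.38 and 0.374 in the ketamine libraries. The 3 ketamine ratios were thus the lowest of the 9, a description chosen after the values were seen.

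**Figure D4:**
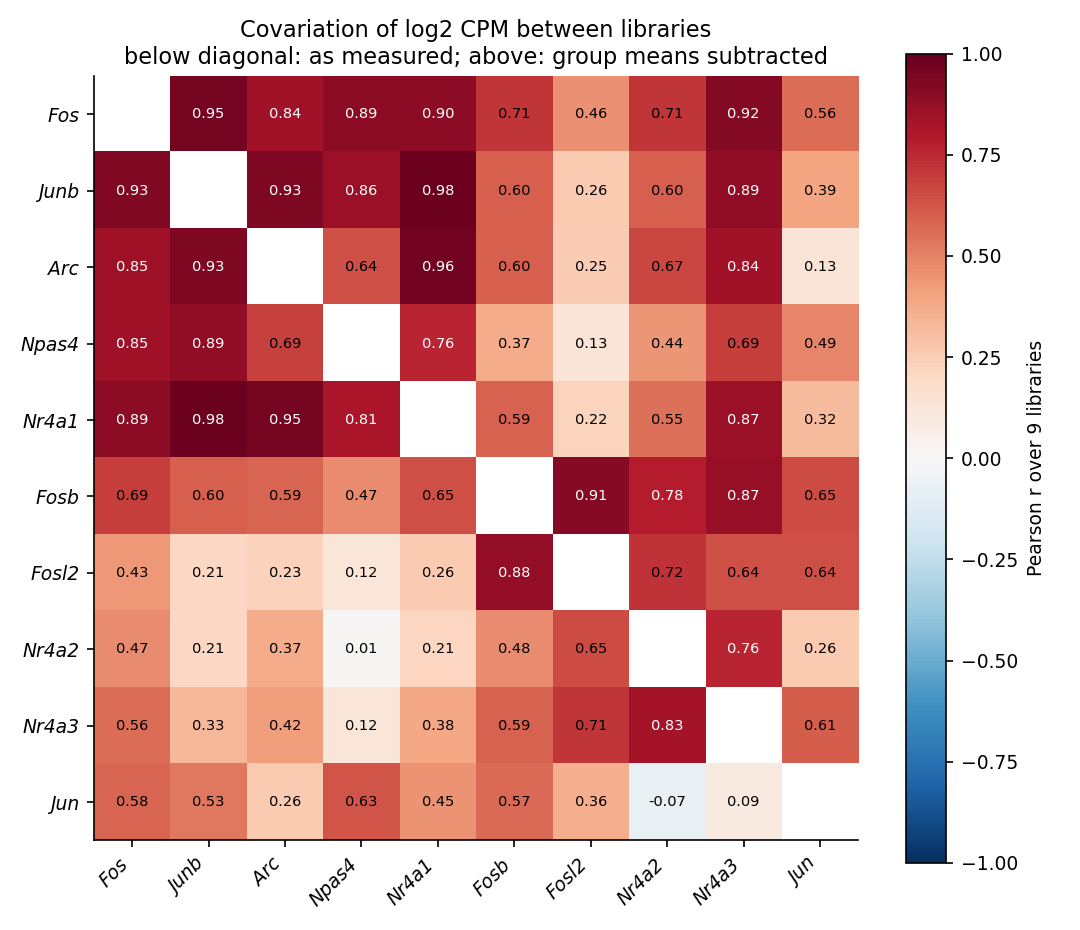
Pearson r of log2 CPM over the 9 libraries for each pair of genes, below the diagonal as measured and above it with group means subtracted; the colour scale runs from -1 to 1. The block of Fos, Junb, Arc, Npas4 and Nr4a1 reaches 0.98, and the Nr4a3 column with that block is stronger above the diagonal than below it.

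**Figure D5:**
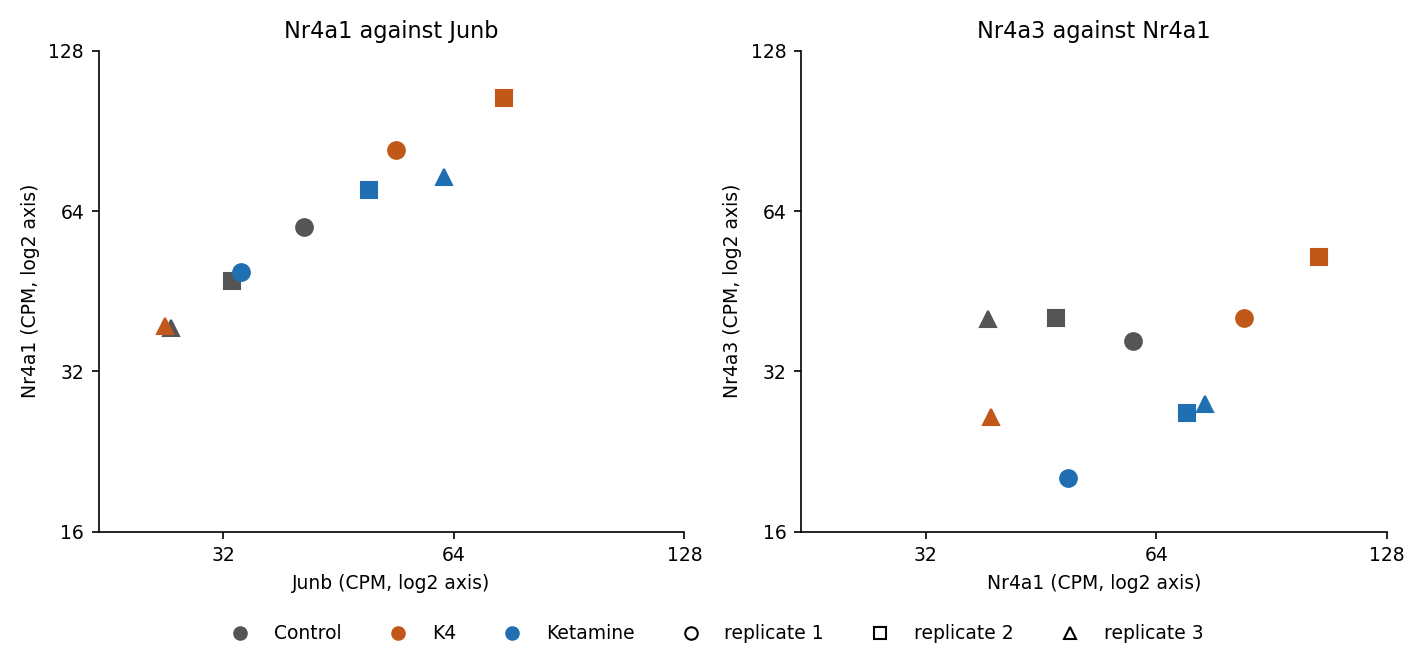
Nr4a1 against Junb and Nr4a3 against Nr4a1, 1 point per library, in CPM on log2 axes. The points of Nr4a1 and Junb lie along 1 line with all 3 groups mixed, while the ketamine libraries (blue) have less Nr4a3 at a given Nr4a1 level than the other libraries.

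By a fixed rule, the 8 further genes closest to the mean profile of the 10 genes were sought among 13103 genes, with group means subtracted. Egr2 (r = 0.99 over 9 libraries) and Egr1 (r = 0.97), zinc finger factors that are themselves immediate early genes, came first. Egr2 was at 25.4 CPM in K4 replicate 2 and at 4.09 CPM in K4 replicate 3, and Egr1 at 122 and 43.9 CPM, so both had the same highest and lowest library as Arc. Spry4, an inhibitor of receptor tyrosine kinase signalling, followed at 0.96. The others were Jpx, Fbxo28, Ccdc148, Arl5b and Mcph1, at 0.95 to 0.93. In all 152 of the 13103 candidates had an r above 0.8. That is a smaller share than the 2.17% of all pairs of tested genes with an r of at least 0.8, group means subtracted. None of these 8 genes was called in any comparison.

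The rest of the pathway was read from 5 lists of related genes. Of 10 AP-1 relatives 7 were tested. Jund, the Jun family member with the steadiest expression in most cells, rose from 69.6 ± 2.42 CPM in controls to 89.2 ± 5.63 CPM after K4 and 95.1 ± 2.43 CPM after ketamine (SD, n = 3). Its log2 fold changes were 0.36 (SE 0.06, edgeR adjusted p = 0.00789) and 0.45 (SE 0.06, edgeR adjusted p = 0.000701). It was the 1 AP-1 relative called for K4, where 2.27% of all genes were called higher. For ketamine, where 6.95% of all genes were called higher, 3 were called, all higher: Jund, Atf4 (0.29, a stress response factor) and Jdp2 (0.33, a repressor that binds Jun). The median of the 7 was 0.17 for K4 and -0.04 for ketamine. The ketamine count was 1 without ketamine replicate 3, and the ketamine median turned positive without control replicate 2 (0.26), control replicate 3 (0.31) or ketamine replicate 1 (0.27), and on TPM, where 5 were tested (0.42). The K4 median was 0.03 without K4 replicate 2. With the length correction, Jund was called for K4, and Jund and Jdp2 for ketamine, while Atf4 was at 0.20 with an edgeR adjusted p of 0.0701. Adding the replicate block left Jund alone for ketamine. The unfiltered TPM fit called 0 for K4 and 1 (Jund) for ketamine.

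Of 30 other immediate early genes, 3 were called higher and 0 lower for K4, with a median log2 fold change of 0.27 and 28 above 0. They were Egr3 (0.65, edgeR adjusted p = 0.0117), a zinc finger factor induced by activity, Rheb (0.24), the GTPase that activates mTORC1, and Trib1 (0.57), a pseudokinase. For ketamine, 3 were called higher and 0 lower, with a median of 0.18: Egr3 (0.59, edgeR adjusted p = 0.00588), Rheb (0.30) and Gadd45g (0.77, edgeR adjusted p = 0.0313), a stress-induced regulator. Among all genes, 2.27% were called higher for K4 and 6.95% for ketamine, so the ketamine count was near that share. Egr3 was at 70.9 ± 8.59 CPM in controls, 111.5 ± 12.6 CPM after K4 and 107 ± 14.3 CPM after ketamine (SD, n = 3). For K4 the count of this list was 0 without control replicate 1, 1 without K4 replicate 1, 1 without K4 replicate 2 (median 0.09), 5 by DESeq2 and 5 on TPM. For ketamine it was 5 without K4 replicate 3, with the replicate block or by DESeq2. It was 6 higher and 1 lower (Per1, named after its value was seen) in the fit of the 2 compared groups, and 4 higher and 1 lower without K4 replicate 2. The unfiltered TPM fit, which called 0.00389% of all genes for K4 and 2.09% for ketamine, called 0 of the list in both.

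Of 16 genes that follow neuronal activity more slowly, 5 were called higher and 0 lower in each comparison with control, where 2.27% of all genes were called higher for K4 and 6.95% for ketamine. The list was chosen with earlier results of these data known, so these shares are a description only. Nptx2, a secreted pentraxin of excitatory synapses, had log2 fold changes of 0.86 for K4 and 0.74 for ketamine (edgeR adjusted p = 0.0151 and 0.0114). Sorcs3, a sorting receptor, had 0.65 and 0.67 (edgeR adjusted p = 0.00268 and 0.000338), and Vgf, a neuropeptide precursor, had 0.46 and 0.36. Crem (0.52), a factor that binds the cAMP response element, was called for K4, and Nrn1 (0.44), a membrane-bound neurite growth factor, for ketamine. Without control replicate 1 the K4 count was 1 and the ketamine count 4. It was 2 for K4 without K4 replicate 2, and 3 for K4 without any 1 of K4 replicate 1, K4 replicate 3, ketamine replicate 2 or ketamine replicate 3. It was 8 for K4 without control replicate 3. The ketamine count was 3 without control replicate 2 or ketamine replicate 2. The fit of the 2 compared groups called 3 for K4, and the unfiltered TPM fit called 0 for K4 and 1 (Sorcs3) for ketamine.

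A mixed list held 18 upstream factors, cofactors and related genes, which do not all act on early gene promoters. Of these 18, 3 were called lower and 0 higher for K4: Creb1 (-0.34, edgeR adjusted p = 0.0103), Crebbp (-0.34), which encodes the coactivator CBP, and Mef2c (-0.38). For ketamine 7 were called lower and 0 higher, the 4 with the smallest p being Mkl2 (-0.69), a cofactor of SRF, Crebbp (-0.35), Elk4 (-0.38) and Creb1 (-0.27). Among all genes, 3.8% were called lower for K4 and 9.75% for ketamine. For K4, 1 was called lower without control replicate 1 or K4 replicate 1, and 5 lower and 2 higher without control replicate 2. For ketamine, 3 were called lower without ketamine replicate 2. On TPM, 1 was called higher (Crtc2, named after its value was seen) and 0 lower for K4, with a median of 0.06, beside 0.16 for all genes on that scale, where the reported fit had -0.10. On TPM 2 were called lower for ketamine (Mkl2 and Npas3), and the unfiltered TPM fit called 0 in both. With the length correction 1 was called lower for K4 (Creb1, -0.24, edgeR adjusted p = 0.0459; 0 with the replicate block added) and 2 for ketamine (Mkl2 and Npas3, the latter named after its value was seen), Mkl2 being at -0.71 with an edgeR adjusted p of 0.0034 and Creb1 at -0.13 with 0.198. With the same correction, 1 of the 30 other immediate early genes, Egr3, was called in each comparison with control (K4 edgeR adjusted p = 0.0154, ketamine 0.00689), and 4 and 5 of the slower genes were called for K4 and ketamine. This correction left 2.62% of all genes called for K4 and 8.12% for ketamine.

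Heat shock genes, which respond to stress and warming of tissue, had 0 of 9 tested called for K4, where 6.07% of all genes were called. For ketamine, where 16.7% of all genes were called, 2 were called, Hspa8 (0.30) and Hspe1 (0.32). The medians were 0.15 for K4 and 0.16 for ketamine. The K4 count was 2 by DESeq2, the same genes, and 3 on TPM, with Hspb1 added, and 1 without control replicate 2 (Hspb1) or control replicate 3 (Hspa8). The ketamine count was 3 on TPM and 1 with the length correction (Hspa8), and 0 without ketamine replicate 2 or 3, in the unfiltered TPM fit or with the length correction and the replicate block. A difference between the treatments in these counts was not shown. In K4 against ketamine, 0 genes of any of these 5 lists were called by edgeR. The smallest adjusted p among them was that of Mkl2 (log2 fold change 0.44, edgeR adjusted p = 0.316), and the smallest in the other lists were those of Plk3 (0.42), Jdp2 (-0.23), Ptgs2 (0.28) and Dnajb1 (-0.14).

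Markers of other cells moved with the groups in part. The summed TPM of 9 interneuron markers was 873 to 1299 in controls, 1355 to 1436 after K4 and 1427 to 1635 after ketamine. That of 8 astrocyte markers was 4019 to 4958, 3810 to 4198 and 3661 to 3726, and that of 10 excitatory markers 2456 to 2723, 2584 to 2730 and 2275 to 2449. Vascular markers summed to 236 to 277 in controls, 216 to 253 after K4 and 174 to 183 after ketamine, blood cell markers to 300.5 to 458.5, 357 to 655 and 229 to 294, and markers of striatal neurons to 149 to 196, 211 to 222 and 188 to 214. The 7 oligodendrocyte markers summed to 1334 to 1919, 2005 to 2529 and 1402 to 1695, the 8 microglial markers to 318.5 to 361, 354 to 360.5 and 317 to 345, and the 6 meningeal markers to 37.9 to 63.6, 34.9 to 121 and 74.4 to 106. Choroid plexus and ependymal markers summed to at most 2.86 TPM in any library, with Clic6 and Folr1 at 0 in all. For ketamine, where 16.7% of all genes were called, calls covered 5 of 8 astrocyte, 4 of 10 excitatory, 4 of 9 interneuron, 3 of 8 vascular, 3 of 8 microglial and 1 of 8 striatal markers, and 0 in the other lists. For K4, where 6.07% were called, they covered 2 of 8 astrocyte, 2 of 10 excitatory, 2 of 8 vascular, 2 of 8 striatal, 1 of 8 microglial and 1 of 7 oligodendrocyte markers, and 0 in the other lists. The part of these differences in the values of Nr4a2, Nr4a3, Fosb and Fosl2 was not tested.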

How the data were processed

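Poly(A) RNA of 9 libraries (3 per group) was sequenced. The authors deposited raw counts per gene and, in separate tables, FPKM and TPM values. Genome build rn6 and the tools HISAT2 2.1.0, StringTie 2.1.3b, bcl2fastq 2.20.0 and Trimmomatic were named, per the submitters' processing notes; which tool counted the reads, and with which strand setting, is not given in the sources used here, so reads of overlapping antisense genes could be shared. Of 37991 genes, 12287 had no count and 27 symbols had become dates, none of them among the 10 genes.

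Counts were tested with edgeR 4.0.16 in R 4.3.3 (filterByExpr with a minimum count of 10 and total of 15, TMM, robust quasi-likelihood fit of all 9 libraries with 3 groups, Benjamini-Hochberg over 18047 genes, threshold 0.05). CPM values use TMM, and correlations use log2 CPM with a prior count of 2. The deposited TPM values were used for levels between genes and, as log2(TPM + 1), in limma 3.58.1. The deposited FPKM values served only to derive the length implied for each gene. As the ratio of TPM to FPKM was not constant within a library, these lengths are approximate. Correlations were tested exactly over all 362880 orders of the libraries. Tests were checked on simulated data. Alternatives were DESeq2 1.42.0, upper quartile scaling, no filter, the compared groups only, a non-robust fit, a replicate block, a length offset, limma on TPM with pseudocounts of 1 and 0.1, and each library left out; counting the gene lists and the median of the 10 genes under them was chosen after seeing the data. Libraries of a group differed beyond sampling noise, so none was merged.

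The 10 genes and all lists were chosen with earlier results of these data known, the covariation included, so no pattern here is independent support for it. Named genes are the 10, up to 4 called genes with the smallest p per list and comparison (the smallest p where none was called), and the 8 most alike genes.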

Additional observations from a re-analysis of the deposited data

How the results depend on the processing

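Of 600 other estimates of the 10 genes' log2 fold changes (20 settings, 3 comparisons), 569 kept their sign and side of the threshold, 7 newly passed it and 24 changed sign. Against 0 in the reported fit, the number of the 10 genes called was 1 for K4 against control and 2 in the joint test of the groups by DESeq2, and 1 for ketamine against control in the fit of those 2 groups only and in the non-robust fit. With 1 library left out it was 0 to 1 for K4 against control (1 without K4 replicate 3), 0 to 1 for ketamine against control (1 without control replicate 3, K4 replicate 2 or K4 replicate 3) and 0 to 2 in the joint test (1 without control replicate 3, 2 without K4 replicate 3); an arm of 2 libraries is assumed to vary like the others. The pairs of genes with an adjusted p below 0.05 for their r numbered 11, 13 on TPM, and 5 to 11 with 1 library left out. With group means subtracted the number was 0, but there the exact permutation cannot give a p below 0.0046. By size, 14 of the 45 pairs had an r of at least 0.8 with group means subtracted (2.17% of all pairs of genes), and 11 as measured (1.79%). Sign changes on the TPM scale were Nr4a2 for K4 against control (0.091 with a pseudocount of 1, with or without the filter, and 0.11 with 0.1), and for K4 against ketamine Jun (0.00072 in both fits with a pseudocount of 1, and 0.00085 with 0.1) and Npas4 (0.0075 in both, and 0.022). With 1 library left out, sign changes gave these ranges: for K4 against control, Nr4a3 from -0.22 (without K4 replicate 2; -0.0035 without control replicate 1) to 0.25, and Nr4a2 from -0.35 to 0.044 (without K4 replicate 3; 0.018 without control replicate 2). For ketamine against control, they were Fosb from -0.043 (without control replicate 1) to 0.27 and Fos from -0.11 (without ketamine replicate 3) to 0.72. For K4 against ketamine, Fos ran from -0.32 to 0.95, Junb from -0.26 to 0.40, Arc from -0.18 to 0.99 and Nr4a1 from -0.072 to 0.54, each lowest without K4 replicate 2, with Junb also at -0.11 without ketamine replicate 1. Jun ran from -0.13 to 0.011 and Npas4 from -0.50 to 0.60, each highest without ketamine replicate 3 and at 0.0082 and 0.10 without K4 replicate 3. The cause of these changes was not tested. Over all genes, DESeq2 called 1890 for K4 against control, 3587 for ketamine against control and 70 for K4 against ketamine, where edgeR called 1095, 3013 and 0; the length offset left 472 and 1465. With a library left out, the 2 comparisons with control called 174 to 1548 and 1177 to 3191 genes. With 3 libraries a group, a doubling (a log2 fold change of 1) could go uncalled. The intervals of Fos, Arc and Npas4 were the widest, but this limit was not confined to them. For K4 against control, those of Fosb, Fosl2, Junb and Nr4a1 also reached above 1 (to 1.19, 1.36, 1.59 and 1.55). Fosl2 in K4 against ketamine, at 1.14, was not called (edgeR adjusted p = 0.382).

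Whether the replicate numbers pair the libraries was not tested. Over all genes, deviations from the group means correlated at 0.0024 to 0.106 between same-numbered libraries of different groups. Between differently numbered libraries they correlated at -0.157 to 0.0688, so the ranges overlapped, with all same-numbered values small and positive. With the replicate number as a block, 0 of the 10 genes were called in every comparison, and 1168, 3191 and 1 genes in all for K4 against control, ketamine against control and K4 against ketamine.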
